A study of Rattus norvegicus with 12 samples.

Results

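The 9 genes studied take part in making, using or carrying glucose. Their RNA was followed through liver regeneration in the rat, from the time of partial hepatectomy (PH), called 0 h, to 24 h after it. The members were chosen by name: PC, PCK1, FBP1 and G6PC, enzymes of gluconeogenesis, PPARGC1A, a coactivator of gluconeogenic genes, PKLR, PKM2 and HK2, enzymes of glycolysis, and SLC2A2, the glucose transporter of hepatocytes. All 9 were found among the 14692 genes listed.

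Male Sprague Dawley rats, adult and of 1 strain, carried a duodenal catheter through which saline ran in every group. A sham operation or a biliary fistula, which drains bile out of the body, was made 24 h before PH, and whole liver was taken 0, 4, 12 or 24 h after PH. The Control columns are rats with the sham operation, and the BF and BA columns are 2 groups of rats with a fistula, 1 of which also received bile acid (sodium taurocholate) by the duodenal catheter. Sample titles and sample descriptions contradict each other on which of the 2 received it: the study's methods use BF for the fistula alone, while the descriptions give the infusion to the samples titled BF. So both are called here by their titles and no direction is drawn from the infusion. Poly(A) RNA was sequenced, and values were deposited as RPKM (reads per transcript length, scaled to an equal library total). Each of the 12 columns, 1 for each treatment and time, is the authors' mean of a run on 1 rat and a run on the combined RNA of 3 rats, so the spread between the 4 rats is unknown and so is the depth. Whether the rats had been fed is not given in the sources used here.

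The liver keeps blood glucose up by gluconeogenesis, which builds glucose from lactate, amino acids and glycerol, and by breaking down glycogen. Gluconeogenesis and glycolysis share most of their enzymes and differ at a few steps that run in 1 direction only: PC and PCK1 carry pyruvate back to phosphoenolpyruvate against pyruvate kinase, FBP1 opposes phosphofructokinase, and G6PC opposes the glucose-phosphorylating enzymes. After PH the remnant must supply the whole body from a smaller mass while it also grows, and the animal becomes hypoglycaemic for a time, which makes this switch a classical part of regeneration physiology.

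The labelled tissue was checked first. All 6 hepatocyte markers found were high in every column, with SERPINA1 between 14570 and 24414 RPKM. A pair of columns stood apart. In the BA column at 4 h ALB reached 303637 RPKM, 30.9% of the column's RPKM, against 41049 to 99928 RPKM elsewhere. Without ALB that column summed to 679188 RPKM, within the 645657 to 703408 RPKM of the others. In the BF column at 12 h, 10 of 11 pancreatic acinar markers were at their highest, with CTRB1 at 84.7 RPKM and at most 0.57 RPKM elsewhere, so transcripts of pancreas were present there. Calls that rest on either column are given with and without it. In whole liver, fewer cells of a type and less RNA per cell cannot be told apart.

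The levels of the 9 genes were far apart. PCK1, the enzyme that makes phosphoenolpyruvate from oxaloacetate, was the most abundant, at a mean of 1032 RPKM over the 12 columns, and FBP1, fructose-1,6-bisphosphatase, followed at 590 RPKM. SLC2A2 (GLUT2), the low-affinity transporter that carries glucose both ways across the hepatocyte membrane, averaged 176 RPKM. G6PC, the catalytic subunit of glucose-6-phosphatase that releases free glucose, averaged 133 RPKM and PC, pyruvate carboxylase of the mitochondria, 108 RPKM. PKLR, the liver form of pyruvate kinase, averaged 45.2 RPKM. PPARGC1A (PGC-1alpha) was far lower at 2.84 RPKM. This is the order of the means, and single columns can depart from it. FBP1 lay above PCK1 in Control at 12 h (565 against 467 RPKM). G6PC lay above SLC2A2 in BF at 0 h (254 against 159 RPKM) and below PKLR in BA at 4 h (29.4 against 48.7 RPKM). The means of G6PC and PC lie closer together than the columns of either, so their order is not fixed.

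HK2 and PKM2, the hexokinase and pyruvate kinase of muscle, growing tissue and many tumours, were listed at low values throughout. HK2 lay between 0.32 and 0.69 RPKM and PKM2 between 0.04 and 0.16 RPKM, and in both the 24 h columns overlapped the 0 h columns. PKM2 was at these levels in the same livers in which CD68, a macrophage marker, stood at 10.9 to 21.2 RPKM. GAPDH, a glycolytic enzyme of every cell, named here after its values were seen, was listed at only 0.05 to 0.54 RPKM in the same table, so a low value in it does not show a low transcript. Whether the PKM2 and HK2 rows hold all reads of their genes was not tested. With means under 1 RPKM, HK2 and PKM2 were left out of the tests, which leaves 7 members among 8459 genes tested.

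**Figure D1:**
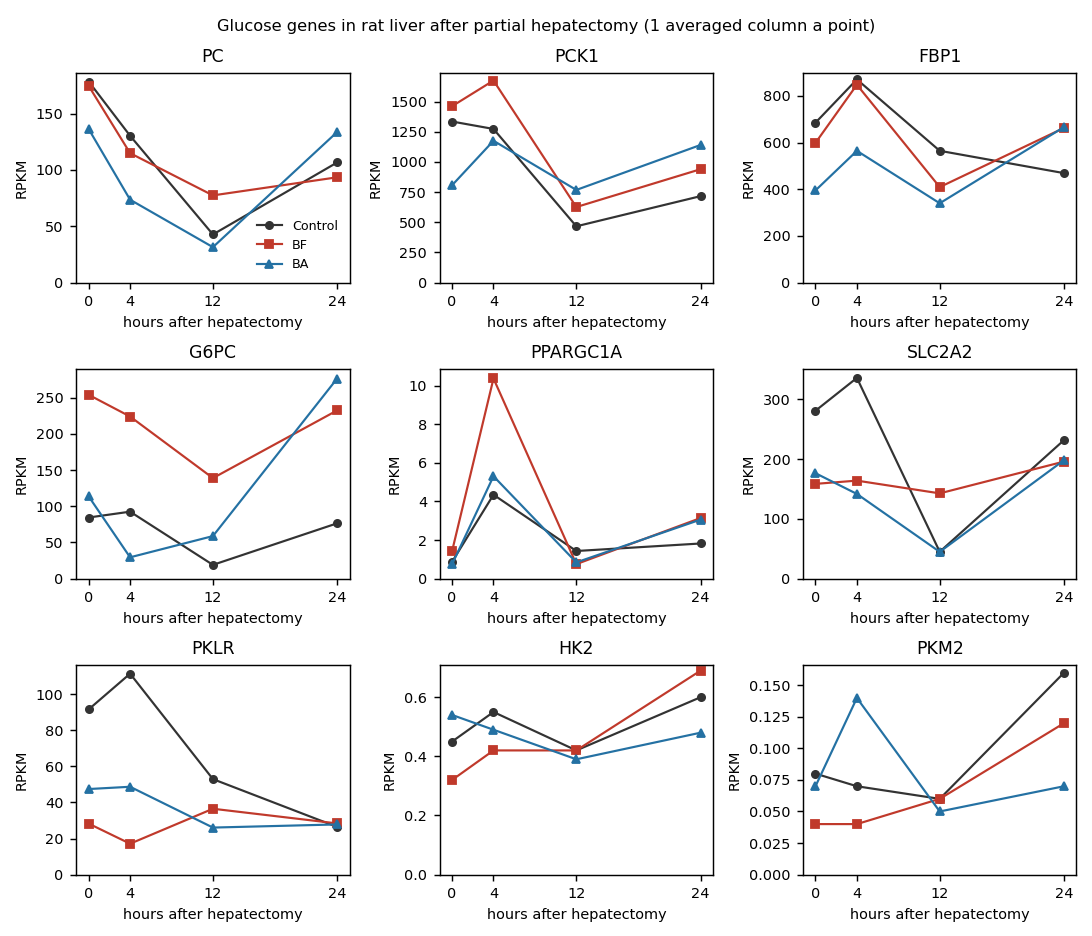
RPKM of the 9 genes (vertical axes, each from 0 and on its own scale) against hours after PH (0, 4, 12 and 24); each point is 1 averaged column, black circles Control, red squares BF and blue triangles BA. PPARGC1A peaks at 4 h in all 3 treatments, PC and PCK1 are lowest at 12 h, and HK2 and PKM2 never reach 1 RPKM.

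Stretches around the RefSeq transcription start are shown (GRCr8 build, 250 bases before the start to 50 after it, 5′ to 3′ along the gene). They are those of the coactivator, the only member called at 4 h, and of PCK1 and SLC2A2, both called lower at 12 h. The stretch of G6PC, which varied most between treatments, is shown as well. Of the 9 genes, 8 matched an entry, and PC did not. The stretches shown lie at chr14:63634058-63634357 (PPARGC1A), chr3:182348322-182348621 (PCK1), chr10:86807409-86807708 (G6PC, named G6pc1 in RefSeq) and chr2:113540120-113540419 (SLC2A2), all on the plus strand. Capitals mark matches to any of 5 motifs searched on both strands: TGACGT (core of the cAMP response element, bound by CREB), TGTTTTG (insulin response sequence), TGTTTAC (FOXO core), CACGTG (E-box) and, for the TATA box, TATAAA.
PPARGC1A: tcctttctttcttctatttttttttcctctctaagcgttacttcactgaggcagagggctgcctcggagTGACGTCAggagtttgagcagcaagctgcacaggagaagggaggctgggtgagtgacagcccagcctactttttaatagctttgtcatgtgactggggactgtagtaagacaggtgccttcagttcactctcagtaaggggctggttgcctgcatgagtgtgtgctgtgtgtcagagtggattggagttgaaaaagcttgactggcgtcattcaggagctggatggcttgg
PCK1: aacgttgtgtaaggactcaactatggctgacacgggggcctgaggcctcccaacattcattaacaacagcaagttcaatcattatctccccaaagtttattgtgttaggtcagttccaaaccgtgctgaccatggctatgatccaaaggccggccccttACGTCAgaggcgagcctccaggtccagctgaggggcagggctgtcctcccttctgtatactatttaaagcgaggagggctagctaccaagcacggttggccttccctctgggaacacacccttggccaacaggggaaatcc
G6PC: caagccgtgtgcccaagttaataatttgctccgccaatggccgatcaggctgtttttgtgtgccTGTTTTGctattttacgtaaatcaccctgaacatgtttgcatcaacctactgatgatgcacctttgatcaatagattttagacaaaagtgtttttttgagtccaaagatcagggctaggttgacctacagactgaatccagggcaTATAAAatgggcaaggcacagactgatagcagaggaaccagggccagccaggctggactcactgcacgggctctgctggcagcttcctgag
SLC2A2: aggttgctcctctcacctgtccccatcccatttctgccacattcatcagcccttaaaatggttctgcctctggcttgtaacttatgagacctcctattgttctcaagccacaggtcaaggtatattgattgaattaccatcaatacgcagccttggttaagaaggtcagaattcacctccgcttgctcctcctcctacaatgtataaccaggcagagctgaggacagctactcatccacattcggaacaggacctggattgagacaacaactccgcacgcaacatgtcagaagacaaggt
The cAMP core stood in PPARGC1A, where the 2 strands' matches overlap from base -181, and in PCK1 from base -91, counted from the start, and in no other of the 8 members, against 7.94% of all 33469 promoters of the same length. G6PC held TGTTTTG from base -186, as did 6.28% of all promoters, and TATAAA from base -41. TATAAA was found in G6PC and PKLR and in 14.2% of all promoters. None of the 8 held CACGTG (6.42% of all) or TGTTTAC (3.78% of all), and SLC2A2 held none of the 5. These are matches of letters only, and nothing follows from them about binding.

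The first comparison asked how the genes changed with time after PH. limma was fitted to log2(RPKM + 1) of all 8459 genes with treatment and time as additive terms, so that the 3 treatments are the samples of a time point (n = 3) and p-values, adjusted by Benjamini-Hochberg over all genes, measure only the spread between these averaged columns, in which treatment-specific time courses and rat-to-rat spread cannot be told apart. The comparisons of 4, 12 and 24 h share the same 0 h columns.

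At 4 h PPARGC1A rose in every treatment. It stood at 0.87, 1.42 and 0.74 RPKM at 0 h in Control, BF and BA and at 4.35, 10.4 and 5.31 RPKM at 4 h. All 4 h columns lay above all 0 h columns, and BF reached the highest level. The mean log2 change was 1.87 ± 0.25 (SE, n = 3; adjusted p = 0.0007259, limma; higher in 3 of 3), a 3.65-fold rise on the RPKM + 1 scale, which understates the change of so low a gene. Without the BA column at 4 h it was 1.95 (adjusted p = 0.003362, limma). PPARGC1A is also expressed in muscle and fat. All 7 skeletal muscle markers were listed under 1 RPKM in every column. The summed level of the 4 adipocyte markers found was 79.5 to 138 RPKM at 4 h and 49.2 to 62.0 RPKM at 0 h, mostly from CIDEC and FABP4, and ADIPOQ among them was at 2.03, 0.14 and 0.02 RPKM in Control, BF and BA at 4 h. The part of these cells in the change was not tested.

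None of the 4 gluconeogenic enzymes among the members passed at 4 h. PPARGC1A was the only 1 of the 7 members tested that passed, against 45.3% of all genes (12.9% higher and 32.4% lower). PCK1 was little changed in Control (1335 and 1274 RPKM at 0 and 4 h) and higher in BF (1462 and 1675) and BA (807 and 1176), a mean log2 change of 0.22 ± 0.26 (SE; adjusted p = 0.5127, limma). FBP1 was higher in 3 of 3 treatments, as seen in Control (685 and 871 RPKM), BF (599 and 848) and BA (395 and 565), but did not pass (log2 change 0.45, adjusted p = 0.1396, limma).

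PC was lower in 3 of 3 treatments at 4 h: Control had 178 and 130 RPKM at 0 and 4 h, BF 175 and 115, and BA 136 and 73.6. Its mean log2 change of -0.64 missed the threshold (adjusted p = 0.08961, limma), and passed it when the BF column at 12 h was left out of the fit (adjusted p = 0.03861). The median log2 change of the 7 members was -0.0029 and that of all genes -0.20. G6PC had unlike values in the treatments: Control had 84.4 and 92.5 RPKM at 0 and 4 h and BF 254 and 224, but BA had 114 and 29.4, the last in the column with the high ALB share. Without that column the mean log2 change of G6PC turned from -0.66 to 0.19.

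At 12 h PC and PCK1, the enzymes of the first steps from pyruvate, were at their lowest in all 3 treatments. PC fell in Control (178 RPKM at 0 h, 42.7 at 12 h), BF (175 and 77.4) and BA (136 and 31.5). No 12 h column reached the lowest 0 h column. The mean log2 change was -1.76 ± 0.28 (SE, n = 3; adjusted p = 0.002696, limma; lower in 3 of 3), a level 0.295 times that at 0 h, and -2.11 without the BF column at 12 h (adjusted p = 0.001482).

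PCK1 fell as well at 12 h, but unequally. Control had 1335 RPKM at 0 h and 467 at 12 h, BF 1462 and 626, and BA, with the smallest step, 807 and 768. The 12 h columns all lay below the 0 h columns, although BA began low. The mean log2 change was -0.94 ± 0.26 (SE, n = 3; adjusted p = 0.02634, limma; lower in 3 of 3). This call was lost without the Control columns (adjusted p = 0.2269), without the BF columns (0.1968), without the BF column at 12 h alone (0.08299) and when columns were rescaled on their median gene (0.05175) or on their total without the 100 most abundant genes (0.07014).

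SLC2A2 fell to almost the same level in Control and BA and hardly in BF. It stood at 281, 159 and 176 RPKM at 0 h in Control, BF and BA and at 44.9, 143 and 44.8 RPKM at 12 h. The single log2 changes were -2.62, -0.15 and -1.96, and the mean was -1.58 ± 0.43 (SE, n = 3; adjusted p = 0.02278, limma; lower in 3 of 3). The call was lost without the Control columns (adjusted p = 0.1608) or without the BA columns (0.1526). The column in which SLC2A2 stayed up is the one with pancreatic acinar genes, and without that column the mean was -2.24 (adjusted p = 0.001237, limma). SLC2A2 is also the transporter of pancreatic beta cells, and what pancreas gave to its level in that column was not tested.

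G6PC and FBP1 were lower in 3 of 3 treatments at 12 h without passing. G6PC had lower values in Control (84.4 RPKM at 0 h, 18.9 at 12 h), BF (254 and 139) and BA (114 and 58.7; log2 change -1.30, 95% interval -2.61 to 0.0054, adjusted p = 0.1176, limma). Its adjusted p was 0.03696 without the BA columns and 0.02178 without the BA column at 4 h. FBP1 reached 565, 409 and 340 RPKM (log2 change -0.35, adjusted p = 0.283, limma). PKLR, of the glucose-using side, had 53.0, 36.5 and 26.1 RPKM in Control, BF and BA, lower than at 0 h in Control and BA and higher in BF.

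Of the 7 members, 3 were called at 12 h, all lower, against 31.5% of all genes called (9.03% higher and 22.5% lower). The median log2 change of the 7 was -0.94, beside -0.12 for all genes. Other measures moved at 12 h too. The summed level of the hepatocyte markers was 72430 to 79010 RPKM at 12 h and 122100 to 139100 RPKM at 0 h, mostly through ALB, while SERPINA1 was higher at 12 h than at 0 h in Control and BF and lower in BA. Summed macrophage markers (10 found) were 313 to 321 RPKM against 407 to 473, endothelial markers (4 found) 44.3 to 45.8 against 55.9 to 59.7, and neutrophil markers (5 found, of which 3 never reached 1 RPKM) 49.95 to 63.1 against 3.11 to 22.8. The 10 most abundant genes took 38.2 to 41.0% of the RPKM at 12 h and 31.5 to 34.3% at 0 h. Their part in the falls was not tested.

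At 24 h none of the 7 members was called lower, and PPARGC1A was again above its start. PPARGC1A stood at 1.82, 3.14 and 3.06 RPKM in Control, BF and BA, all above the 0 h columns, with a mean log2 change of 0.86 ± 0.25 (SE, n = 3; adjusted p = 0.02493, limma; higher in 3 of 3). The call was lost without the BF columns (adjusted p = 0.06623), without the BA columns (0.1708) and with columns rescaled on their median gene (0.1019). It was the only member of 7 called, against 36.1% of all genes (30.6% higher and 5.54% lower). The members' median log2 change was 0.064, beside 0.21 for all genes.

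Several members ended at different places in the 3 treatments at 24 h. PCK1 remained below its 0 h level in Control (717 RPKM) and BF (940) and stood above it in BA (1141). G6PC was close to its 0 h level in Control (76.4 RPKM) and BF (232), but reached its highest value of the 12 columns in BA (276). FBP1 was below 0 h in Control (469 RPKM) and above it in BF (663) and BA (666). Treatment-specific changes of this kind cannot be tested with 1 column each.

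PC was still lower in 3 of 3 treatments at 24 h, at 107, 93.4 and 134 RPKM (log2 change -0.55, adjusted p = 0.1513, limma), and this passed only with columns rescaled on their median gene (adjusted p = 0.04619). SLC2A2 was back at 232, 196 and 198 RPKM. PKLR converged: from 91.7, 28.3 and 47.5 RPKM at 0 h it came to 26.4, 28.4 and 27.8 RPKM, so that the 3 treatments, far apart at the start, lay within 2 RPKM of each other. Its mean log2 change was -0.83 (95% interval -1.81 to 0.14, adjusted p = 0.1562, limma), carried by Control and BA.

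**Figure D2:**
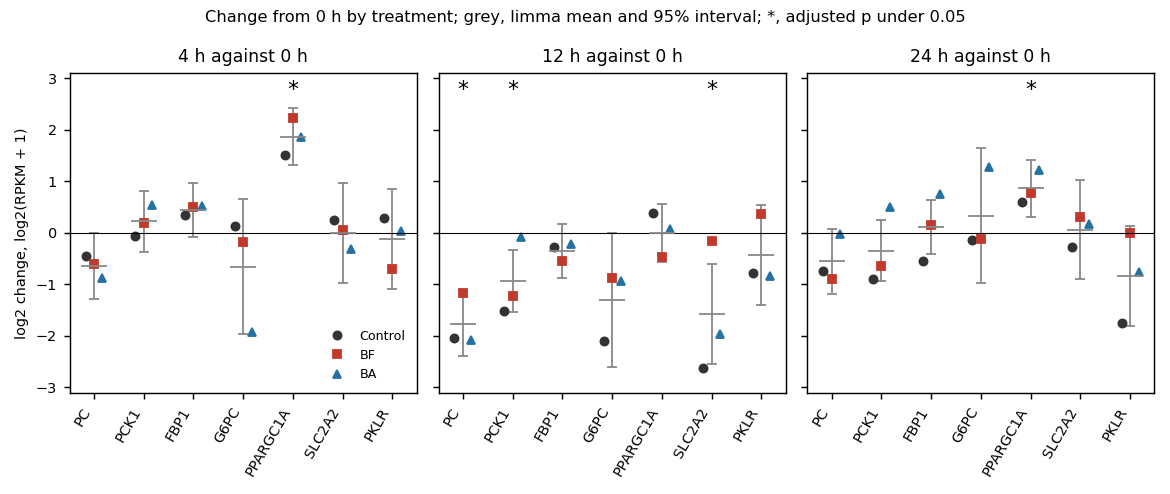
Log2 change from 0 h on log2(RPKM + 1) (vertical axis) of the 7 tested genes at 4, 12 and 24 h; black circles Control, red squares BF and blue triangles BA, grey bars the limma mean with its 95% interval, stars an adjusted p under 0.05. PPARGC1A is starred at 4 and 24 h and PC, PCK1 and SLC2A2 at 12 h, where SLC2A2 in BF stays near 0 at -0.15.

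The direction of calls over all genes depends on how columns are scaled, since their medians differ. On columns rescaled on their median gene the share of calls that were higher went from 28.4 to 41.9% at 4 h, from 28.7 to 49.1% at 12 h and from 84.7 to 37.6% at 24 h. For the members, PPARGC1A at 4 h and PC and SLC2A2 at 12 h kept their calls under both rescalings.

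The second comparison asked whether the treatments differed, with the 4 times as samples (n = 4). BF and BA are both set against the same Control columns. None of the 7 members passed in any of the 3 contrasts (limma), where 0.804% of all genes were called for BF against Control, 0.0709% for BA against Control and 0.0118% for BF against BA. At an unadjusted p under 0.05 (limma) there were 2 members in the first, 0 in the second and 1 in the third. Of all 8459 genes tested, 1852, 1919 and 661 were under that threshold in the same order. The medians of the 7 were 0.11, -0.33 and 0.36, beside -0.11, -0.14 and 0.030 for all genes.

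G6PC differed most between BF and Control. It was higher in BF at 4 of 4 times, with 254 against 84.4 RPKM at 0 h, 224 against 92.5 at 4 h, 139 against 18.9 at 12 h and 232 against 76.4 at 24 h. The lowest BF column lay above the highest Control column. The mean log2 ratio was 1.81 ± 0.50 (SE, n = 4; 95% interval 0.68 to 2.94), 3.51-fold, but the adjusted p was 0.116 (limma; 0.005417 unadjusted). It was 0.04825 when the BA column at 4 h was left out, an alternative chosen after seeing the data.

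G6PC in the BA columns did not hold 1 place. It was 114 RPKM at 0 h, between the others, 29.4 at 4 h, below both others, 58.7 at 12 h, again between them, and 276 at 24 h, above both. The log2 ratio to Control was therefore 0.42, -1.62, 1.58 and 1.84 in order of time, with a mean of 0.56 (95% interval -0.58 to 1.69, adjusted p = 0.5073, limma). BF against BA gave 1.26 (adjusted p = 0.6062, limma).

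PKLR went the other way between BF and Control. It was 28.3 against 91.7 RPKM at 0 h, 17.1 against 112 at 4 h, 36.5 against 53.0 at 12 h, and 28.4 against 26.4 at 24 h, so lower in BF at 3 of 4 times and level at the last. The mean log2 ratio was -1.18 ± 0.37 (SE, n = 4; 95% interval -2.02 to -0.34; adjusted p = 0.1373, limma). In BA it was also lower than Control at 3 of 4 times, with a mean of -0.76 (adjusted p = 0.2546, limma). Without the 4 h columns the BF value was -0.70, and without the 24 h columns -1.61.

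PCK1 was higher in BF than in Control at 4 of 4 times, but by little (log2 ratios 0.13 to 0.42; mean 0.34, 95% interval -0.18 to 0.85, adjusted p = 0.4093, limma). FBP1, PC, PPARGC1A and SLC2A2 had means within 0.39 of 0 for BF against Control, with 95% intervals that reached 0.95 at the most in size, so differences of that size could not be seen here. These misses do not show that the treatments acted alike.

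At single times there is 1 column a treatment and no test, and a ratio past 2-fold was taken as the rule. Between BF and Control this held for 2 of 7 members at 0 h (G6PC and PKLR), against 3.89% of all genes, for 4 at 4 h (G6PC, PPARGC1A, PKLR and SLC2A2), against 4.35%, for 2 at 12 h (G6PC and SLC2A2), against 3.52%, and for 1 at 24 h (G6PC), against 2.08%. PPARGC1A at 4 h was 10.4 RPKM in BF and 4.35 in Control. SLC2A2 was 164 RPKM in BF and 336 in Control at 4 h, and 143 and 44.9 at 12 h, so its order turned around between these times.

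Between BA and Control none of the 7 members was past 2-fold at 0 h, against 4.02% of all genes. At 4 h 3 were, G6PC, PKLR and SLC2A2, all lower in BA, against 7.28%, in the column with the high ALB share, and the count was 1 with columns rescaled on their median gene. G6PC was the 1 at 12 h, against 1.71%, and the 1 at 24 h, against 2.05%, both higher in BA. With a pseudocount of 0.1 in place of 1 RPKM the count at 12 h was 2.

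Between BF and BA the members past 2-fold were G6PC at 0 h (1.82% of all genes), G6PC and PKLR at 4 h (4.72%), G6PC, PC and SLC2A2 at 12 h (1.92%), and none at 24 h (1.86%). At 12 h BF stood above BA for each of the 3, with PC at 77.4 against 31.5 RPKM, in the column with pancreatic transcripts.

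**Figure D3:**
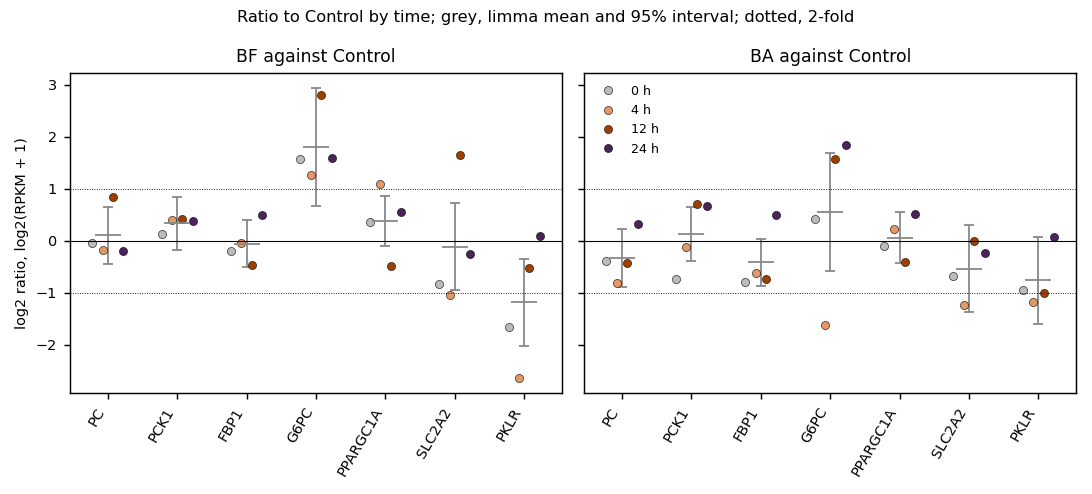
Log2 ratio to Control on log2(RPKM + 1) (vertical axis) of BF (left) and BA (right) for the 7 tested genes; points are the 4 times, coloured from light (0 h) to dark (24 h), grey bars the limma mean with its 95% interval, dotted lines a 2-fold ratio. G6PC lies above the upper dotted line at all 4 times in BF, and in BA runs from -1.62 at 4 h to 1.84 at 24 h.

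PCK1 and PKLR, which act in opposite directions between pyruvate and phosphoenolpyruvate, were set against each other within a column, where scaling cancels. The PCK1 to PKLR ratio in Control was 14.6, 11.4, 8.81 and 27.1 at 0, 4, 12 and 24 h. In BF it was 51.7, 97.9, 17.2 and 33.1, and in BA 17.01, 24.1, 29.5 and 41.0. The treatments were furthest apart at 4 h and did not keep 1 order, as BA stood highest at 12 and 24 h and BF at 0 and 4 h. These are values of single columns, with no test.

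**Figure D4:**
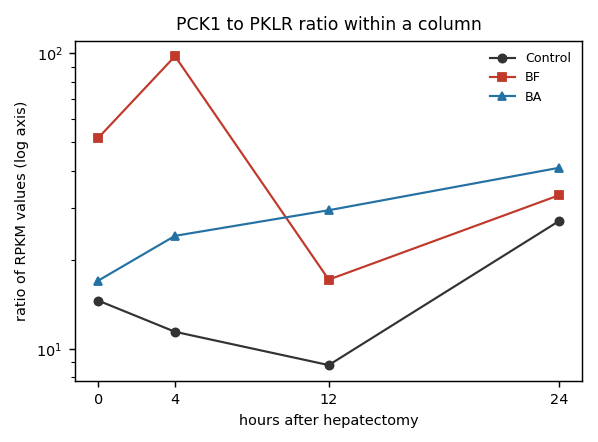
Ratio of the RPKM of PCK1 to that of PKLR within a column (vertical axis, log scale) against hours after PH; black circles Control, red squares BF and blue triangles BA. BF peaks at 97.9 at 4 h, and in Control and BA the ratio is higher at 24 h than at 0 h.

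The wider pathways were read from lists, of which the members form part. Over 7 lists 71 gene-by-time calls of genes other than the members were picked by size, and 25 of them held in all of 7 other settings (each treatment left out, the BF column at 12 h or the BA column at 4 h left out, and both rescalings), while 46 were lost in at least 1. Of 17 glycolysis genes tested, 5 were higher and 1 lower at 4 h, 4 and 1 at 12 h, and 6 and 1 at 24 h, beside 12.9% higher and 32.4% lower, 9.03% and 22.5%, and 30.6% and 5.54% of all genes. With columns rescaled on their median gene the 24 h count was 2 higher and 1 lower. Lactate dehydrogenase LDHA rose at 12 h (log2 change 1.25 ± 0.20 SE, adjusted p = 0.002675, limma), as did PGK1 (1.02) and TPI1 (0.92) at 24 h, and these 3 held in all settings. ALDOA rose by 1.2 at 4 h, lost without the BF columns. The median of the list was -0.086, -0.057 and 0.33 at the 3 times, beside -0.20, -0.12 and 0.21 for all genes.

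Of 19 gluconeogenesis genes tested, 4 of them members, 3 were higher and 4 lower at 4 h, 0 and 6 at 12 h, and 5 and 1 at 24 h, beside the same shares of all genes. With columns rescaled on their median gene these were 1 and 2 at 12 h and 0 and 5 at 24 h, and rescaled on the total without the 100 most abundant genes 2 and 2 at 12 h and 3 and 1 at 24 h, so neither count had a stable direction. At 4 h the called rises were of enzymes that bring amino acid carbon in: GOT1, the cytosolic aspartate aminotransferase, by 3.34 ± 0.33 (SE; adjusted p = 0.0002987, limma), SDS, serine dehydratase, by 2.71, and TAT, tyrosine aminotransferase, by 1.74. GOT1 went from 78.9 to 104 RPKM at 0 h up to 769 to 1139 RPKM at 4 h. GPT2, an alanine aminotransferase, fell by 1.35 on the log2 scale, and these 4 held in all settings. SDS was 3.58 lower than at 0 h by 12 h, at 1.68 to 6.60 RPKM against 8.85 to 184 RPKM, a call lost without the BF columns (adjusted p = 0.06081). SLC37A4, which carries glucose 6-phosphate to G6PC, fell by 0.99 on the log2 scale at 12 h, a call lost in 5 of the 7 settings (highest adjusted p = 0.1521).

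Among 29 tested regulators of hepatic glucose genes, 7 were higher and 7 lower at 4 h, 0 and 8 at 12 h, and 2 and 5 at 24 h, beside the same shares of all genes. Under the rescalings the counts were 10 and 6 at 4 h in both, 1 and 5 or 2 and 3 at 12 h, and 0 and 9 or 2 and 5 at 24 h. MYC rose by 1.79 at 4 h, and CEBPA, a factor of the differentiated hepatocyte, fell by 1.49 on the log2 scale at 4 h and by 1.44 at 12 h. At 12 h KLF15 fell by 1.15 and the glucocorticoid receptor NR3C1 by 1.13 on the log2 scale. All of these held in every setting. Of the other carriers of glucose and lactate (6 tested with SLC2A2), SLC16A1 rose by 0.73 at 4 h and SLC16A7 fell by 1.62 on the log2 scale at 12 h, both in every setting.

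In the contrasts between treatments, 1 list gene passed: PFKM, the muscle form of phosphofructokinase, on the glycolysis list, named here after its values were seen. It stood at 6.26 to 18.5 RPKM in Control, 0.69 to 4.45 in BF and 0.35 to 1.75 in BA, with a mean log2 ratio to Control of -2.29 in BF (adjusted p = 0.02124, limma) and -2.60 in BA (adjusted p = 0.01191, limma). The BA call was lost without the BA column at 4 h (adjusted p = 0.05454), the BF call without the BF column at 12 h (0.05893), and both without a filter on low values (0.07208 and 0.06689), without the block (0.1095 and 0.179), without the 0 h columns (0.1934 and 0.1256) and without the 4 h columns (0.1823 and 0.1228), and the BA call also without the 24 h columns (0.09433).

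Genes whose log2(RPKM + 1) followed a member most closely over the 12 columns were found by Pearson's r among 8458 genes, as a description over points that share treatments and times. PPARGC1A went with GOT1 (r = 0.959) and with ASL of the urea cycle (0.955). PC went with LHPP (0.968), BDH1, a ketone body enzyme (0.959), and CYP4F4 (0.949). PCK1 went with RGD621098 (0.929), CLEC4F, a lectin of Kupffer cells (0.922), and CDO1 (0.894), G6PC with HADHA of fatty acid oxidation (0.911), FBP1 with ASS1 of the urea cycle (0.881), PKLR with PLSCR2 (0.883) and SLC2A2 with AMACR (0.918). Between members the highest r was that of PC and SLC2A2 (0.873), and G6PC and PKLR ran against each other (-0.437).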

How the data were processed

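Whole-liver poly(A) RNA of rats was sequenced for 3 treatments at 4 times after PH. RPKM values were computed by the authors, who deposited a table with an averaged column for each treatment and time (2 runs, on 1 rat and on the combined RNA of 3). The submitters' processing notes name CASAVA, Bowtie 0.12.2 and the builds rn4 and mm8, without roles. How the 2 runs were weighted is not given in the sources used here. RPKM holds no read counts, so depth and counting error are unknown. Groups follow the sample titles.

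Of 14692 genes, 1 had no value and 2303 were at 0 throughout. Values were tested as log2(RPKM + 1) for genes averaging 1 RPKM or more (8459), with limma 3.58.1 in R 4.3.3 (variance trend, 6 residual degrees of freedom, Benjamini-Hochberg adjustment over all genes, threshold 0.05), in an additive model of treatment and time. The fit was tried on simulated data with independent noise and without treatment effects. That simulation cannot show how the fit behaves where treatments have time courses of their own, as may be so here. Alternatives were other pseudocounts (0.1 and 0.5) and filters (none and 5 RPKM), 2 rescalings, no variance trend, no block, and treatments, times or single columns left out; leaving out the BA column at 4 h was added after seeing the data.

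Named genes were the 9 members, of each list up to 4 called genes with the largest change at each time, and the 3 genes most like each member, of which 1 to 3 are printed. Some genes selected by these rules have no values reported here. The members and lists were chosen with earlier results of these data known. Promoter sequences are from RefSeq (GRCr8). Other steps used Python 3.11.15, numpy, pandas and matplotlib.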

Additional observations from a re-analysis of the deposited data

Results flagged for a closer look

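In 11 cases a member moved one way from 0 h in 1 treatment and the other way in another. Each rests on 1 averaged column a treatment and time, so the difference was not tested. The span between the highest and the lowest of the 3 log2 changes is given first, then the changes in Control, BF and BA.

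At 4 h the span was widest for G6PC, at 2.045 (0.13, -0.18 and -1.92). It was 0.9724 for PKLR (0.28, -0.69 and 0.037), 0.6104 for PCK1 (-0.068, 0.20 and 0.54) and 0.5713 for SLC2A2 (0.26, 0.048 and -0.31). The BA value of each comes from the column in which ALB took 30.9% of the RPKM. At 12 h it was 1.198 for PKLR (-0.78, 0.36 and -0.84) and 0.8456 for PPARGC1A (0.38, -0.47 and 0.081), where BF went against both others and its column held pancreatic acinar genes.

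At 24 h the span was 1.761 for PKLR (-1.76, 0.0049 and -0.75), 1.419 for G6PC (-0.14, -0.13 and 1.28), 1.396 for PCK1 (-0.90, -0.64 and 0.50), 1.298 for FBP1 (-0.55, 0.15 and 0.75) and 0.5798 for SLC2A2 (-0.28, 0.30 and 0.17). PCK1 and G6PC were higher than at 0 h in BA and lower in both others. In the BA column at 24 h the 10 most abundant genes took 36.7% of the RPKM, against 29.4% in Control and 31.0% in BF. The part of this share in the differences was not tested.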

How the results depend on the processing

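The rise of PPARGC1A at 4 h and the fall of PC at 12 h kept their calls in every alternative in which the gene was tested; with a filter at 5 RPKM, PPARGC1A was not tested and 0 members were called at 4 h and 0 at 24 h. Over 561 member changes recomputed, 513 kept their direction and side of the threshold, 32 turned, 10 lost and 6 gained a call. The treatment contrasts over all genes were unstable. Genes called for BF against Control numbered 2 without a filter, 10 without the BF column at 12 h and 1 without the block, and for BA against Control 0 without a filter, 0 without the BA column at 4 h and 1 without the block, and BF against BA gave 3 without the BF column at 12 h. Members called were 2 at 4 h without the BF column at 12 h (PC added) and 1 for BF against Control without the BA column at 4 h (G6PC). Leaving out 1 treatment gave 2155 to 2499 genes called at 4 h, 789 to 1821 at 12 h and 752 to 2583 at 24 h, and 1 to 3 members at 12 h and 0 to 1 at 24 h. Leaving out 1 time gave 0 to 36 genes for BF against Control, 0 to 15 for BA against Control and 0 to 2 for BF against BA.

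Directions turned only for changes that had not been called. Rescaled on the median gene, PKLR at 4 h was 0.008621, SLC2A2 at 4 h 0.1335, PPARGC1A at 12 h 0.06167, FBP1 at 24 h -0.2163, SLC2A2 at 24 h -0.2685, and for BF against Control FBP1 0.08022 and SLC2A2 0.01851. Rescaled on the total without the 100 most abundant genes, PKLR at 4 h was 0.02785, SLC2A2 at 4 h 0.1534, PPARGC1A at 12 h 0.1191, SLC2A2 at 24 h -0.0224 and FBP1 for BF against Control 0.06018. Without the BF column at 12 h, PPARGC1A at 12 h was 0.2752, FBP1 and PC for BF against Control 0.03507 and -0.1505, and SLC2A2 for BF against BA -0.07524. Without the BA column at 4 h, G6PC and SLC2A2 at 4 h were 0.1918 and 0.1065. With 1 treatment left out the 4 h changes ranged from -0.3278 to 0.1584 (PKLR) and -0.1329 to 0.1527 (SLC2A2), the 12 h change of PPARGC1A from -0.1935 to 0.2293, and the 24 h changes from -0.1997 to 0.4496 (FBP1), -0.1347 to 0.5746 (G6PC) and -0.05491 to 0.235 (SLC2A2). With 1 time left out, BF against Control ranged from -0.6978 to 0.1949 (SLC2A2), -0.232 to 0.08842 (FBP1) and -0.1335 to 0.2102 (PC), BA against Control from -0.05697 to 0.4242 (PCK1) and -0.08903 to 0.22 (PPARGC1A), and BF against BA from -0.02093 to 0.3626 (PCK1). The causes were not tested.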

Other observations

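The neighbouring pathways of glucose moved after PH as well. Of 14 glycogen genes tested, 1 was higher and 7 lower at 4 h, 0 and 6 at 12 h, and 3 and 1 at 24 h, beside 12.9% higher and 32.4% lower, 9.03% and 22.5%, and 30.6% and 5.54% of all genes. With columns rescaled on their median gene the counts were 1 and 5, 0 and 5, and 1 and 3, and rescaled on the total without the 100 most abundant genes 1 and 4, 1 and 5, and 1 and 1. PPP1R3B, which brings a phosphatase to glycogen and so favours its synthesis, fell by 2.66 on the log2 scale at 4 h (adjusted p = 0.0001021, limma), by 1.94 at 12 h and by 1.49 at 24 h. Glycogen synthase GYS2 rose by 1.09 at 4 h and the liver phosphorylase PYGL fell by 1.58 on the log2 scale at 12 h. All of these calls held in each of 7 other settings.

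Of 10 tested genes of pyruvate entry to mitochondria, 2 were higher and 2 lower at 4 h, 0 and 3 at 12 h, and 2 and 1 at 24 h, beside the same shares of all genes, and under the 2 rescalings 4 and 2 or 4 and 1, 2 and 3 or 3 and 2, and 0 and 1 or 2 and 1. PDK2, a kinase that switches pyruvate dehydrogenase off, fell by 1.89 on the log2 scale at 12 h, and DLAT, a subunit of that enzyme, rose by 0.66 at 4 h, both in every setting. The pentose phosphate pathway supplies ribose and NADPH to growing cells. Of its 7 tested genes, 2 were higher at 4 h, 1 at 12 h and 3 at 24 h, beside 12.9%, 9.03% and 30.6% of all genes. At these times 0 of the 7 were lower, beside 32.4%, 22.5% and 5.54% of all genes. Under the rescalings the numbers higher were 2 at 4 h, 3 at 12 h and 0 or 1 at 24 h. RPIA rose by 0.91 at 4 h in every setting. The 3 calls at 24 h (TKT, TALDO1 and RPIA) were lost on columns rescaled on their median gene.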
